A study of Mus musculus with 6 samples.

Results

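Chaperones fold, hold and disassemble other proteins, and the fully grown oocyte stores their transcripts for meiosis and the first divisions. The 84 genes described here carry a mouse symbol of a heat shock protein (Hspa, Hspb, Hspd, Hspe, Hsp90, *Hsph1*), a DNAJ protein of type A, B or C, a subunit of the chaperonin TRiC (Cct, *Tcp1*) or a BAG protein. They were picked by symbol alone out of 17577 listed genes, whatever their values. Symbols are not proof of function: *Hspb11* encodes a subunit of the intraflagellar transport machinery and *Dnajc19-ps* is a pseudogene, and both were kept apart as "other by symbol".

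The transcripts were measured in germinal vesicle (GV) oocytes of 12-week-old C57BL/6 J mice, 3 libraries from Bnc1tr/tr females and 3 from wild-type (WT) females. Bnc1tr/tr mice are homozygous for a short deletion in an exon of *Bnc1* that shifts the reading frame and truncates basonuclin 1, a zinc finger protein of oocytes, and the allele is carried by every cell of the animal and not only by the oocyte. Per the methods of the study the mice came from heterozygous parents and littermates were compared, the females were primed with pregnant mare serum gonadotropin, and oocytes were punctured from antral follicles and amplified singly by a modified Smart-seq2 procedure (oligo-dT priming, template switching and PCR, without molecular identifiers). The labels do not say which animal gave which library, so p-values measure the spread between these libraries.

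HSP70 proteins bind short hydrophobic stretches and release them in a cycle driven by ATP. J-domain (DNAJ) proteins bring clients to HSP70 and start the hydrolysis, whereas HSP110 and BAG proteins exchange the nucleotide and so free the client. HSP90 acts late on kinases and receptors. The ring-shaped chaperonins enclose whole chains: TRiC in the cytosol, with clients such as actin and tubulin, and HSP60 with its lid HSP10 in mitochondria. The endoplasmic reticulum (ER) has its own HSP70 (*Hspa5*, or BiP), HSP90 (*Hsp90b1*, or GRP94) and J-domain proteins, and mitochondria theirs. Heat shock factors induce the cytosolic set and the unfolded protein response the ER set.

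The deposited values are FPKM (fragments per kilobase of transcript, scaled to the mapped fragments of a library), a level corrected for transcript length. Depth, estimated from the steps between low FPKM values, was 13.4 to 17.1 M fragments (M, mega) in Bnc1tr/tr and 14.9 to 22.2 M in WT, so that 3 fragments of a transcript of 1 kb amount to 0.135 to 0.223 FPKM. Lower levels rest on very few fragments, and this covers counting error only. Bnc1tr/tr libraries listed 10682 to 11035 genes at 1 FPKM or more and WT libraries 9518 to 9748. The part of this difference in gains of members near 1 FPKM (*Dnajc16*, *Hspa13*, *Dnajc28* and *Hspa1a*) was not tested. *Bnc1* itself was at 9.04, 6.51 and 5.83 FPKM in Bnc1tr/tr and 13.2, 12.5 and 16.2 FPKM in WT, without overlap (log2 fold change -0.89, adjusted p = 0.0090 by limma), although a frameshift allele can still be transcribed. All 12 oocyte marker genes had a mean of at least 1 FPKM, and their summed level was 14091 to 15164 FPKM in Bnc1tr/tr and 16779 to 18269 FPKM in WT. The most abundant, *Dppa3*, overlapped at 5481 to 7146 FPKM in Bnc1tr/tr and 5462 to 10706 FPKM in WT. *Zp2* and *Nlrp5* passed as lower and 10 did not pass, among them *Bmp15*, which was higher in every Bnc1tr/tr library (adjusted p = 0.063 by limma). The summed level of 8 listed granulosa and cumulus markers was 42.6 to 59.5 FPKM in Bnc1tr/tr and 22.6 to 39.6 FPKM in WT. Most of it was *Cyp19a1*, which did not pass (log2 fold change 0.57, adjusted p = 0.1 by limma), nor did *Nr5a2*. *Fshr* (4.54, 5.83 and 5.37 FPKM in Bnc1tr/tr, 0.31, 0.74 and 0 FPKM in WT, adjusted p = 1.1e-04 by limma) and *Kitl* (log2 fold change 0.68, adjusted p = 0.018 by limma) were higher. *Inha* went the other way without passing (log2 fold change -1.11, adjusted p = 0.24 by limma). *Hsd17b1*, not tested, was at 0.21, 0.38 and 0 FPKM in Bnc1tr/tr and 0.93, 1.43 and 0 FPKM in WT. The granulosa regulator *Foxl2* was at 0 in all libraries but WT replicate 1 (0.03 FPKM). Stroma markers summed to 5.72 to 9.69 FPKM in Bnc1tr/tr and 1.40 to 2.09 FPKM in WT and theca markers to 5.95 to 7.52 and 0.710 to 2.64 FPKM. Each sum was mostly the single marker tested, *Dcn* for stroma and *Cyp11a1* for theca (log2 fold change 1.44 and 1.61). Of the others, *Lum* and *Pdgfra* were higher at low levels, *Col1a1* was at or near 0, *Star* and *Cyp17a1* overlapped, and *Lhcgr* was at 0 in Bnc1tr/tr and 0.14, 0.03 and 0 FPKM in WT. The endothelial sum was lower, at 5.38 to 8.10 FPKM in Bnc1tr/tr and 10.1 to 11.7 FPKM in WT, and was mostly *Pecam1*. *Pecam1* passed as lower (log2 fold change -1.02, adjusted p = 0.0048 by limma), *Tek* did not pass, and *Cdh5* was at or near 0. *Kdr*, not tested, was higher, at 1.54, 0.64 and 0.53 FPKM in Bnc1tr/tr and 0.10, 0.12 and 0.07 FPKM in WT. The immune sum overlapped at 1.89 to 13.1 FPKM in Bnc1tr/tr and 1.39 to 3.0 FPKM in WT, and was mostly *Cd68*, which did not pass. *Csf1r* and *Ptprc* overlapped as well. *Cd3e* (0.31, 0.24 and 0.67 FPKM) and *Adgre1* (0.09, 0.09 and 0.13 FPKM) were listed at low levels in each Bnc1tr/tr library and at 0 in WT. Immediate early genes, which respond to handling within minutes, summed to 14.8, 9.08 and 5.77 FPKM in Bnc1tr/tr and 6.15, 3.99 and 2.54 FPKM in WT, with *Fos* and *Ier2* higher by limma. The part of these differences in the chaperone values was not tested.

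The chaperone transcripts held 0.967 to 1.12% of all FPKM in a library. A mean of at least 100 FPKM was reached by 19 of the 84, a mean of 10 to 100 by 30, and a mean of 1 to 10 by 19. The leading member was *Hsp90aa1*, the inducible cytosolic HSP90, which ranked 53 among all 17577 genes by its mean over the 6 libraries, with 1370 ± 175 FPKM (SD, n = 3) in WT and 1575 ± 190 FPKM (SD, n = 3) in Bnc1tr/tr. *Hspa8*, the constitutive cytosolic HSP70, came next at rank 148, with 900 ± 189 FPKM (SD, n = 3) in WT and 591 ± 101 FPKM (SD, n = 3) in Bnc1tr/tr. The TRiC subunit *Cct5* followed at rank 307, with 521 ± 89.5 FPKM (SD, n = 3) in WT and 317 ± 45.5 FPKM (SD, n = 3) in Bnc1tr/tr. The cytosolic J-domain proteins *Dnajb4*, *Dnajb6* and *Dnaja1* followed at WT means of 327, 273 and 231 FPKM, together with *Dnajc9*, a histone-binding J protein, at 288 FPKM and the splicing-associated *Dnajc8* at 267 FPKM. WT means of *Hspa8* and *Cct5* stood further apart than their SDs. *Cct8*, *Dnajc9*, *Dnajb6* and *Dnajc8*, at ranks 451 to 480, overlapped in their WT libraries, whereas every *Dnajb4* value (rank 407) was above every *Dnajc8* value.

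A mean under 1 FPKM was found for 16 members, among them the stress-inducible HSP70 genes. *Hspa1a* was listed at 1.01, 1.69 and 0.91 FPKM in Bnc1tr/tr and 0.41, 0.40 and 0.17 FPKM in WT. The levels did not overlap, and *Hspa1a* passed as higher in the fit without a filter on low values. However, 70.1% of the 31-base words of *Hspa1a* occur in transcripts of other genes, mostly *Hspa1b*, and reads from that shared sequence cannot be told apart. *Hspa1b* lay between 0.03 and 0.20 FPKM in the 6 libraries. *Bag3*, the BAG protein that heat shock induces most strongly with HSP70, was at 0.02 FPKM in Bnc1tr/tr replicate 2 and at 0 in the other libraries. *Hspa2*, the HSP70 of male meiosis, was low at 1.12, 1.30 and 1.90 FPKM in Bnc1tr/tr and 1.52, 1.21 and 1.62 FPKM in WT.

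To find which chaperone transcripts differed with the *Bnc1* truncation, all 10560 genes that averaged 1 FPKM or more were fitted together with limma on log2(FPKM + 1). Changed genes are those whose p, adjusted by Benjamini and Hochberg over all of them, was under 0.05 and whose log2 fold change exceeded 0.5 in either direction. Of the 84 members, 68 entered this fit. Changed members numbered 13 (19.1% of the 68), against 31.8% of all genes tested. Higher in Bnc1tr/tr were 8: *Dnajb9*, *Bag5*, *Dnajc16*, *Dnajc5b*, *Dnajc5g*, *Dnajc15*, *Hspa13* and *Dnajc28* (background 24.1%). Lower were 5: *Hsph1*, *Hspa5*, *Hsp90b1*, *Cct5* and *Dnajc18* (background 7.68%). The levels of the groups did not overlap for 13 members that were higher and 11 that were lower in Bnc1tr/tr, where all genes gave 32.7% and 14.1% (46.8% in either direction). The median log2 fold change was -0.03 over the 68 members and 0.15 over all genes tested.

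**Figure D1:**
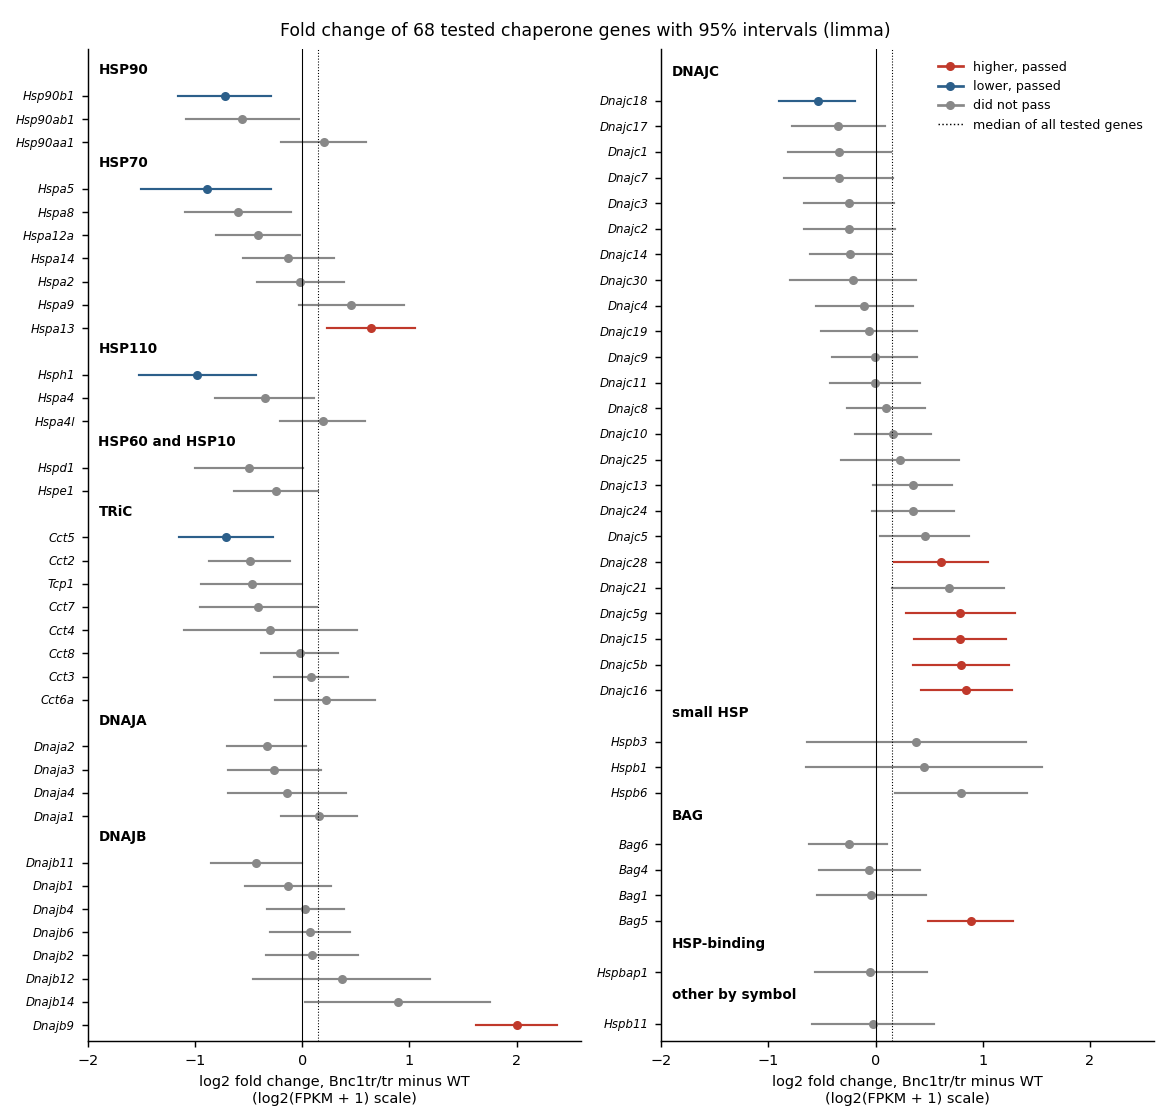
Log2 fold change (Bnc1tr/tr minus WT, on the log2(FPKM + 1) scale) of the 68 tested chaperone genes by class, with 95% intervals from limma, where red and blue mark the 8 higher and 5 lower genes that passed and the dotted line marks the median of all tested genes at 0.15. *Dnajb9*, at 2.0, stands far to the right of the others, and the HSP90, HSP70, HSP110, chaperonin and DNAJC genes spread to both sides of 0.

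The balance between higher and lower depends on how libraries are scaled. Median-ratio scaling moved the median of all genes from 0.15 to -0.05 and gave 3 higher and 14 lower members (17 changed, background 33.0%, or 18.5% higher and 14.5% lower), and quantile normalization gave 4 and 13 (17 changed, background 33.0%, or 15.8% higher and 17.1% lower). Upper-quartile scaling gave 3 higher and 18 lower members (21 changed, background 34.5%, or 17.5% higher and 17.0% lower). The count of changed members was 7, 5 and 10 without Bnc1tr/tr replicates 1, 2 and 3, and 8, 6 and 22 without WT replicates 1, 2 and 3. WT replicate 3 was the WT library nearest to the mutant mean for 22 of the 39 members with a negative fold change (56.4%) and for 40.5% of all tested genes with one. Without it 9 members were higher and 13 lower, against a background of 33.5% (23.7% higher and 9.86% lower).

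Of the members assigned to the ER, all 12 were tested, with 2 higher, 3 lower and 7 that did not pass (24.1% higher and 7.68% lower over all genes). *Dnajc16*, also higher, was placed elsewhere, and another placement would change these counts. *Dnajb9* (ERdj4, a J protein that helps dispose of misfolded ER proteins) changed most of all members. It was at 34.4, 39.8 and 46.4 FPKM in Bnc1tr/tr and 9.43, 9.28 and 8.97 FPKM in WT. Each mutant library stood well above the tightly grouped WT libraries, with a ratio of means of 4.36 (log2 fold change 2.0 ± 0.17 SE, 95% interval 1.62 to 2.38, adjusted p = 4.6e-05 by limma). Relative to the median of all genes the log2 change was 1.86. *Dnajb9* passed under all 14 alternative fits, at adjusted p from 2.4e-05 to 6.3e-04 (limma).

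*Hspa5* (BiP), the HSP70 that *Dnajb9* works with, went the other way. Its level was 66.2, 47.8 and 74.5 FPKM in Bnc1tr/tr and 131.6, 147.5 and 79.3 FPKM in WT. The mutant libraries were the 3 lowest, but WT replicate 3 lay only just above them (log2 fold change -0.89 ± 0.27 SE, adjusted p = 0.032 by limma). Without that library the log2 fold change was -1.16, and the call was lost without Bnc1tr/tr replicate 1 or 2 or WT replicate 1 or 2 (adjusted p up to 0.12 by limma), as well as with a pseudocount of 0.1 or no filter on low values. *Hsp90b1* (GRP94), the HSP90 of the ER, was at 50.3, 46.1 and 67.2 FPKM in Bnc1tr/tr and 85.7, 100.7 and 82.9 FPKM in WT. The groups were apart (log2 fold change -0.72 ± 0.19 SE, adjusted p = 0.020 by limma), and the call was lost without Bnc1tr/tr replicate 1 or 2 or WT replicate 2 (adjusted p up to 0.087 by limma).

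The remaining ER members were split. *Hspa13*, a truncated HSP70 relative of microsomes, rose from 0.97, 1.14 and 0.76 FPKM in WT to 2.23, 1.54 and 2.44 FPKM in Bnc1tr/tr (log2 fold change 0.64 ± 0.18 SE, adjusted p = 0.025 by limma). This low gene lost its call without Bnc1tr/tr replicate 1 or 3 or WT replicate 1 or 2 (adjusted p up to 0.089 by limma) and under each of the other scalings. *Dnajc18*, a J protein of the ER membrane, fell from 3.67, 2.96 and 3.15 FPKM in WT to 1.78, 1.92 and 2.05 FPKM in Bnc1tr/tr (log2 fold change -0.54 ± 0.16 SE, adjusted p = 0.028 by limma), and only the fit without WT replicate 3 kept the call among those that left out a library (adjusted p up to 0.088 by limma). *Dnajc3* (p58IPK), a BiP partner that also restrains the kinase PERK, was at 69.3, 74.3 and 87.3 FPKM in Bnc1tr/tr and 96.5, 103.9 and 76.2 FPKM in WT. Its groups overlapped and it did not pass (log2 fold change -0.25, 95% interval -0.67 to 0.17). *Dnajb11* (ERdj3) at a ratio of means of 0.733 did not pass either (adjusted p = 0.12 by limma), but did so as lower without WT replicate 3 (adjusted p = 0.027 by limma) and under each of the other scalings. The most abundant ER members of WT were *Hspa5* and *Dnajc14*, at 119 ± 35.7 and 115 ± 8.48 FPKM (SD, n = 3), which did not differ beyond their spread, and they were at 62.8 ± 13.6 and 97.5 ± 10.6 FPKM (SD, n = 3) in Bnc1tr/tr.

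**Figure D2:**
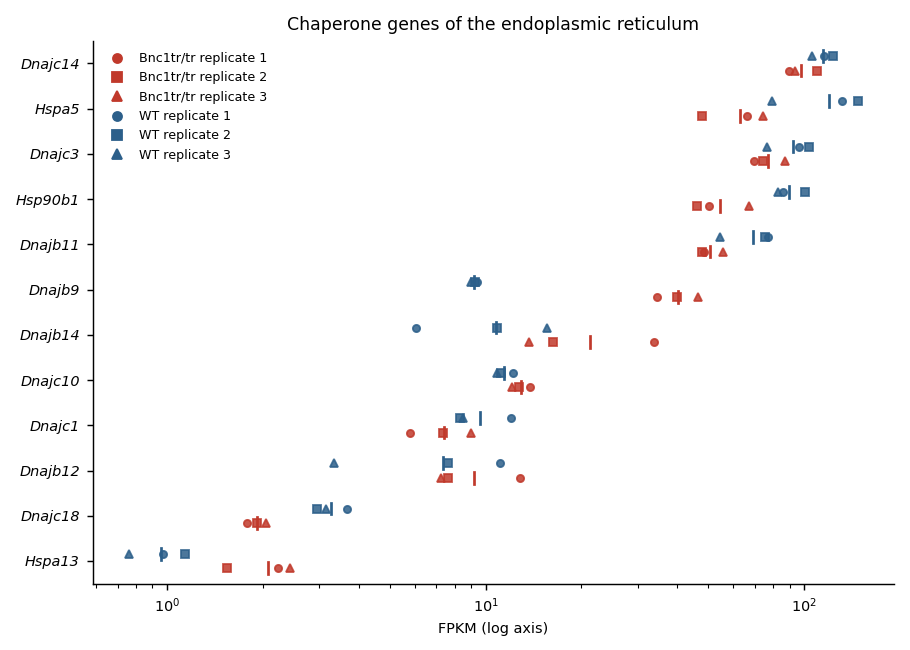
FPKM (log axis) of the 12 ER chaperone genes in each of the 3 Bnc1tr/tr (red) and 3 WT (blue) libraries, with short vertical lines at group means. *Dnajb9* lies at 34.4 to 46.4 FPKM in Bnc1tr/tr and near 9 FPKM in WT, whereas *Hspa5* and *Hsp90b1* are lower in every Bnc1tr/tr library than in any WT library.

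Of the 7 members known to be induced by ER stress, 2 were higher (*Dnajb9* and *Hspa13*), 2 were lower (*Hspa5* and *Hsp90b1*), and *Dnajc3*, *Dnajc10* and *Dnajb11* did not pass, beside the same 24.1% and 7.68% over all genes. The ratio of *Dnajb9* to *Hspa5* within a library was 0.520, 0.832 and 0.623 in Bnc1tr/tr and 0.0716, 0.0629 and 0.113 in WT. Every mutant ratio was above every WT ratio, which had to follow because *Dnajb9* was higher and *Hspa5* lower in every mutant library. The exact two-sided permutation p of 0.10 (0.14 after adjustment over the 7 ratios computed) is the smallest that 3 against 3 libraries allow. It was fixed by those levels and adds no support to them.

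The sequences before the start sites of some ER genes, among them *Hspa5* and *Dnajb9*, were read for a stress element. The ER stress response element (ERSE, CCAAT and CCACG with 9 bases between them) is bound by ATF6 together with NF-Y, and it was searched on both strands from 250 bases before to 50 after the start of 27025 RefSeq genes (GRCm38.p6), of which 37 (0.137%) hold it. Among the 68 members with a listed promoter (not the same 68 as those tested) it was found in *Hspa5*, *Hsp90b1* and *Dnajc3*. The promoters of these ER genes and of *Dnajb9* are shown 5′ to 3′ up to the base before the start, with ERSE matches in capitals, and in *Dnajb9*, which has no full match, with the CCAAT box in capitals. The positions are chr2:34771840-34772089 (+) for *Hspa5*, chr10:86705445-86705694 (-) for *Hsp90b1*, chr14:118937682-118937931 (+) for *Dnajc3* and chr12:44210069-44210318 (-) for *Dnajb9*.
Hspa5: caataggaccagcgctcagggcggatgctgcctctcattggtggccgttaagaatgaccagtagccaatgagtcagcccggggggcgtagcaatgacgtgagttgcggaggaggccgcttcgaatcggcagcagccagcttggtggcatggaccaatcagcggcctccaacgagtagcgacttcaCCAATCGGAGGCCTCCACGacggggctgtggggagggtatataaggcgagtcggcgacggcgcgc
Hsp90b1: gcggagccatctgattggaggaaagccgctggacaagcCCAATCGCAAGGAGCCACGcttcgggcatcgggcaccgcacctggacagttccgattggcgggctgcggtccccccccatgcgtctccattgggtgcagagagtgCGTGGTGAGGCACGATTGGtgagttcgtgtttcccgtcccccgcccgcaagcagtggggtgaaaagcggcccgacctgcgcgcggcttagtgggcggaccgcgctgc
Dnajc3: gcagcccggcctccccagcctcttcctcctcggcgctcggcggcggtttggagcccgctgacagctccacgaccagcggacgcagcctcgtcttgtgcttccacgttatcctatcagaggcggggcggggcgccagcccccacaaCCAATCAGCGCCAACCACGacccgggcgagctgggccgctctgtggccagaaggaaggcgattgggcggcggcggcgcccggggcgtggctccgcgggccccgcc
Dnajb9: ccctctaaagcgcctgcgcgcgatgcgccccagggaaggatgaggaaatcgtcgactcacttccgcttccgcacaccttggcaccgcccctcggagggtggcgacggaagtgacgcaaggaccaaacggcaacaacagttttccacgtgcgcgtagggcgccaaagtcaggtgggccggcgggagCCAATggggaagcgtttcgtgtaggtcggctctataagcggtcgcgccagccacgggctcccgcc

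*Hspa5* and *Dnajc3* have 1 match each, beginning 65 and 105 bases before the start, and *Hsp90b1* has 2, the second of them on the opposite strand. *Hspa5* and *Hsp90b1* passed the test as lower and *Dnajc3* did not pass, so the genes with the element did not all pass. The related element ERSE-II (ATTGG and CCACG with 1 base between them), present in 12 genes (0.0444%), was found in 1 member, *Dnajb11*, just after its start. *Hspa13*, which was higher, and *Dnajc18*, which was lower, were not among the genes with a match to either element. Other elements of the unfolded protein response were not searched, in *Dnajb9* or elsewhere. A match is a description of letters and not of binding.

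In the cytosol (with the nucleus), 52 members were listed and 39 tested, of which 1 was higher, 2 were lower and 36 did not pass (24.1% higher and 7.68% lower over all genes). *Hsph1* (HSP105), the inducible HSP110 that exchanges nucleotide on HSP70, was at 15.0, 12.2 and 15.7 FPKM in Bnc1tr/tr and 37.3, 32.3 and 20.0 FPKM in WT. All mutant libraries were lower, with a ratio of means of 0.479 (log2 fold change -0.98 ± 0.24 SE, adjusted p = 0.014 by limma). The call was lost by a small margin without Bnc1tr/tr replicate 2 or WT replicate 2 (adjusted p = 0.056 for either by limma). Its relatives did not pass on the deposited scale. *Hspa4* was at 17.4 to 20.4 FPKM in Bnc1tr/tr and 19.2 to 31.2 FPKM in WT, and *Hspa4l*, enriched in the germ line, at 15.1 to 19.0 and 12.4 to 16.3 FPKM. *Hspa4* passed as lower under upper-quartile, median-ratio and quantile scaling (log2 fold change -0.61, -0.56 and -0.55, adjusted p = 0.033, 0.048 and 0.044 by limma).

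*Hspa8* was at 475.9, 662.8 and 635.7 FPKM in Bnc1tr/tr and 1019.9, 997.4 and 681.8 FPKM in WT. The groups were apart only by the short distance between WT replicate 3 and Bnc1tr/tr replicate 2, and *Hspa8* did not pass (log2 fold change -0.60, 95% interval -1.09 to -0.10, adjusted p = 0.068 by limma). It passed without WT replicate 3 (adjusted p = 0.017 by limma), with upper-quartile or median-ratio scaling and with trend and robust variances. Of its 31-base words, 44.8% occur in transcripts of other genes as well. *Hspa14*, which with *Dnajc2* forms the HSP70 pair that binds nascent chains at the ribosome, lay at 85.8, 92.4 and 117.2 FPKM in Bnc1tr/tr and 103.5, 122.9 and 95.5 FPKM in WT, and both partners overlapped between groups.

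The cytosolic HSP90 pair was dominated by *Hsp90aa1*, which shares 51.5% of its 31-base words with other genes. It was at 1739.9, 1368 and 1617.8 FPKM in Bnc1tr/tr and 1220.9, 1326.5 and 1562.5 FPKM in WT. The groups overlapped and the gene did not pass (log2 fold change 0.20, 95% interval -0.20 to 0.60), with a sign that turned under upper-quartile and median-ratio scaling. The constitutive *Hsp90ab1* was at 107.1, 65.5 and 87.5 FPKM in Bnc1tr/tr and 149.99, 132.3 and 100.1 FPKM in WT. It did not pass (log2 fold change -0.56, adjusted p = 0.098 by limma) except without WT replicate 3 and under those scalings. The ratio of *Hsp90aa1* to *Hsp90ab1* was 18.5 ± 2.31 (SD, n = 3) in Bnc1tr/tr and 11.3 ± 3.89 (SD, n = 3) in WT, without overlap (exact two-sided permutation p = 0.10, the smallest possible, and 0.14 after adjustment over 7 ratios).

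The chaperonin TRiC is built from 8 different subunits in each of its rings, and the symbols hold 9 genes because *Cct6b* is a testis form of *Cct6a*. Transcript levels of the subunits were far from equal. *Cct5* and *Cct8* led at WT means of 521 and 291 FPKM, and *Cct6a* had the lowest level of the tested subunits at 2.35, 2.27 and 3.17 FPKM in Bnc1tr/tr and 2.26, 2.70 and 1.42 FPKM in WT. Other genes hold 17.3% of the 31-base words of *Cct6a*, and the part of shared reads in this gap was not tested.

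*Cct5* was the subunit that passed on the deposited scale, at 280.9, 368.3 and 302.5 FPKM in Bnc1tr/tr and 584.3, 560.5 and 418.7 FPKM in WT. No mutant library reached a WT library (log2 fold change -0.71 ± 0.20 SE, adjusted p = 0.023 by limma). The call was lost without Bnc1tr/tr replicate 1 or 3 or WT replicate 1 or 2 (adjusted p up to 0.091 by limma). *Cct2* and *Tcp1* also had groups without overlap, at ratios of means of 0.710 and 0.704, but did not pass (adjusted p = 0.051 and 0.12 by limma), and both passed without WT replicate 3 and under upper-quartile and median-ratio scaling, *Cct2* also under quantile normalization. *Cct7* passed as lower under upper-quartile and quantile scaling, and *Cct4* without WT replicate 3. *Cct8* and *Cct3* were level, with 95% intervals of the log2 difference from -0.38 to 0.33 and from -0.26 to 0.43. Within a library, *Cct5* was 1.73 ± 0.208 (SD, n = 3) times *Cct3* in Bnc1tr/tr and 3.01 ± 0.474 (SD, n = 3) times in WT, and 1.11 ± 0.124 (SD, n = 3) against 1.78 ± 0.181 (SD, n = 3) times *Cct8*. Neither ratio overlapped between groups (exact two-sided permutation p = 0.10 for each, the smallest possible, and 0.14 after adjustment over 7 ratios). *Cct5* alone was already apart between the groups, so these ratios are no separate evidence.

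**Figure D3:**
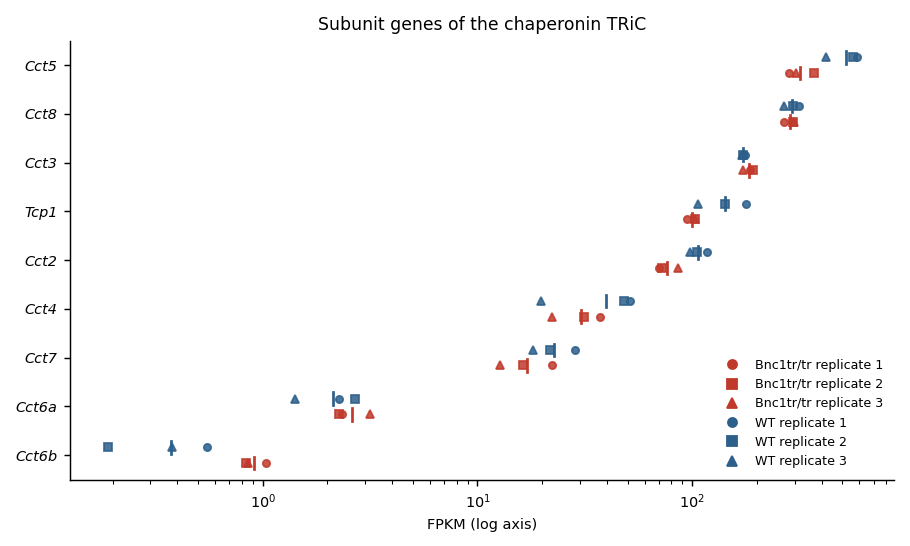
FPKM (log axis) of the 9 TRiC genes in each of the 3 Bnc1tr/tr (red) and 3 WT (blue) libraries, with short vertical lines at group means. Levels run from under 1 FPKM for *Cct6b* to a WT mean of 521 FPKM for *Cct5*, and *Cct5*, *Cct2* and *Tcp1* are lower in every Bnc1tr/tr library.

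None of the tested cytosolic J-domain proteins of type A and B passed on the deposited scale. *Dnaja1*, the farnesylated partner of HSP70, was at 274.3, 254.4 and 244.3 FPKM in Bnc1tr/tr and 247.7, 218.1 and 226.8 FPKM in WT, and the heat-inducible *Dnajb1* at 117.4, 131 and 151.3 and at 162.1, 147.3 and 128.9 FPKM. Both overlapped, with 95% intervals of the log2 difference from -0.20 to 0.51 and from -0.53 to 0.27. *Dnajb4* (95% interval -0.33 to 0.39) and *Dnajb6*, known for holding back protein aggregates (-0.30 to 0.45), were equally close, and the sign of *Dnaja1*, *Dnajb4* and *Dnajb6* turned under upper-quartile and median-ratio scaling. *Dnaja2* had groups without overlap at a ratio of means of 0.788 but did not pass (adjusted p = 0.15 by limma), although it did under upper-quartile and median-ratio scaling (log2 fold change -0.61 and -0.55, adjusted p = 0.016 and 0.025 by limma). Among the cytosolic and nuclear DNAJC proteins, *Dnajc9* and *Dnajc8* overlapped at log2 fold changes of -0.01 and 0.10, of which the latter turned sign under the same scalings. *Dnajc21*, a ribosome assembly factor, was at 84.0 to 90.7 FPKM in Bnc1tr/tr and 40.9, 49.8 and 77.1 FPKM in WT, and missed the threshold (log2 fold change 0.68, adjusted p = 0.054 by limma), which it passed without WT replicate 3 (adjusted p = 0.0043 by limma), with the replicate number as a block, with trend and robust variances and with a minimum mean of 5 FPKM.

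Of the higher DNAJC members, *Dnajc5b* and *Dnajc5g* belong to the cysteine string protein family, which escorts proteins of secretory vesicles. *Dnajc5b* was at 50.5, 55.7 and 39.5 FPKM in Bnc1tr/tr and 22.98, 31.04 and 28.5 FPKM in WT (log2 fold change 0.80 ± 0.20 SE, adjusted p = 0.014 by limma). *Dnajc5g* was at 22.3, 34.0 and 22.6 FPKM in Bnc1tr/tr and 11.7, 17.9 and 14.4 FPKM in WT (log2 fold change 0.79 ± 0.23 SE, adjusted p = 0.026 by limma). Both genes were higher in every mutant library, and the calls were lost without Bnc1tr/tr replicate 2 (adjusted p = 0.054 and 0.085 by limma), for *Dnajc5g* also without WT replicate 1, with no filter on low values and under quantile normalization, and for both under upper-quartile and median-ratio scaling. The widely expressed *Dnajc5* had groups without overlap at a ratio of means of 1.48 and did not pass (adjusted p = 0.090 by limma). *Dnajc16* rose from 0.51, 0.64 and 0.24 FPKM in WT to 2.06, 1.55 and 1.28 FPKM in Bnc1tr/tr (log2 fold change 0.84 ± 0.19 SE, adjusted p = 0.0089 by limma) and kept its call without any single library but not under quantile normalization. This gain near 1 FPKM stands beside more genes at 1 FPKM or more in every Bnc1tr/tr library.

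In mitochondria, all 10 members were tested and 2 were higher, a share close to the 24.1% of all genes. *Dnajc15* (MCJ), a J protein of the inner membrane tied to the import motor and to complex I, was at 152.8, 215.3 and 190.1 FPKM in Bnc1tr/tr and 91.8, 112.2 and 116.5 FPKM in WT. The groups stood apart at a ratio of means of 1.74 (log2 fold change 0.79 ± 0.19 SE, adjusted p = 0.013 by limma), and the call was lost without Bnc1tr/tr replicate 2 (adjusted p = 0.051 by limma) and under upper-quartile and median-ratio scaling. Its relative *Dnajc19*, the J protein of the import motor, was at 144.8 to 194.8 FPKM in Bnc1tr/tr and 150.9 to 217.4 FPKM in WT and did not pass. The ratio of *Dnajc15* to *Dnajc19* was 1.05, 1.11 and 1.09 in Bnc1tr/tr and 0.537, 0.744 and 0.536 in WT (exact two-sided permutation p = 0.10, the smallest possible, and 0.14 after adjustment over 7 ratios). *Dnajc15* alone was already apart between the groups, so the ratio is no separate evidence. *Dnajc28* rose from a WT mean of 0.75 to 1.68 FPKM (adjusted p = 0.041 by limma), near the filter on low values, and lost its call without any library but Bnc1tr/tr replicate 3 (adjusted p up to 0.13 by limma) under each of the other scalings, with no filter on low values and with trend and robust variances.

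The folding machines of the mitochondrial matrix did not pass on the deposited scale. *Hspa9* (mortalin), the matrix HSP70, was at 97.4, 63.8 and 73.2 FPKM in Bnc1tr/tr and 67.8, 54.4 and 46.7 FPKM in WT, with overlap (log2 fold change 0.46, 95% interval -0.03 to 0.95). *Hspd1* (HSP60) was at 27.9, 22.9 and 29.5 FPKM in Bnc1tr/tr and 48.2, 40.5 and 27.9 FPKM in WT, where WT replicate 3 lay among the mutants (log2 fold change -0.50, adjusted p = 0.12 by limma). It passed as lower without that library (adjusted p = 0.020 by limma) and under upper-quartile, median-ratio and quantile scaling (adjusted p = 0.017, 0.025 and 0.032 by limma). Its lid *Hspe1* (HSP10) was at 181.2, 204.9 and 231.3 FPKM in Bnc1tr/tr and 214.4, 250.3 and 266.1 FPKM in WT (log2 fold change -0.24, 95% interval -0.64 to 0.15). *Hspe1* exceeded *Hspd1* by 7.77 ± 1.23 times (SD, n = 3) in Bnc1tr/tr and 6.72 ± 2.59 times (SD, n = 3) in WT, which did not differ beyond the spread (exact two-sided permutation p = 0.60). *Hspd1* and *Hspe1* share 53.1% and 30.5% of their 31-base words with other genes, mostly pseudogenes in the case of *Hspd1*.

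*Hspd1* and *Hspe1* lie head to head on chromosome 1 and share the stretch between them. The heat shock element searched (HSE, the units GAA, TTC and GAA with 2 bases between neighbours, bound by heat shock factors, on both strands with overlaps allowed) was found in 179 genes (0.662%) and in 4 members, *Hspd1*, *Hspe1*, *Dnajb6* and *Hsph1*. The *Hspe1* promoter at chr1:55087898-55088147 (+) is shown because its capitals, an overlapping pair of matches, are the same bases that count for *Hspd1* on the other strand.
Hspe1: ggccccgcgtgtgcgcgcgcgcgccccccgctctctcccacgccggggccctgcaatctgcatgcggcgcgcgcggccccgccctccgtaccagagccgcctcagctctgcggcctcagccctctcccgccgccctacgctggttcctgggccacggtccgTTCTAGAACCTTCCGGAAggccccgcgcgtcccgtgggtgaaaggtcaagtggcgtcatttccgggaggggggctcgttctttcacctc

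*Hsph1* was the gene of these 4 that passed, as lower, and *Hspd1*, *Hspe1* and *Dnajb6* did not pass. Over the 11 listed members known to be induced by heat, 8 were tested, of which *Hsph1* was lower and 7 did not pass (24.1% higher and 7.68% lower over all genes), and *Hspa1a* passed as higher where no filter on low values was applied. Their median log2 fold change was 0.01 against 0.15 for all genes tested. By limma, 2 of 3 tested heat shock factors did not pass: *Hsf1* was at 32.7, 22.1 and 26.2 FPKM in Bnc1tr/tr and 30.3, 27.6 and 11.9 FPKM in WT, and *Hsf2* at 4.02 to 4.56 and 1.87 to 4.29 FPKM. *Hsf5*, the germ-cell member of the family, was higher (34.7, 29.5 and 26.3 FPKM in Bnc1tr/tr, 13.7, 10.95 and 17.2 FPKM in WT, log2 fold change 1.07, adjusted p = 0.0040 by limma).

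Small heat shock proteins, holdases without ATPase activity, were low and scattered. *Hspb1* (HSP25) was at 5.80, 12.1 and 24.6 FPKM in Bnc1tr/tr and 7.98, 15.4 and 5.11 FPKM in WT, a spread wider than the group difference (95% interval of the log2 difference -0.65 to 1.55), and 55.4% of its 31-base words occur elsewhere, mostly in a pseudogene. *Hspb6* was at 5.75, 5.31 and 3.90 FPKM in Bnc1tr/tr and 3.62, 2.82 and 1.25 FPKM in WT. The groups did not overlap, yet the gene did not pass (log2 fold change 0.80, adjusted p = 0.052 by limma), except with the replicate number as a block or without WT replicate 1 (adjusted p = 0.012 and 0.024 by limma).

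Among the nucleotide exchange factors of the BAG family, *Bag5* rose from 5.31, 5.15 and 3.99 FPKM in WT to 11.0, 9.16 and 8.99 FPKM in Bnc1tr/tr. It was higher in 3 of 3 mutant libraries by a ratio of means of 2.02 (log2 fold change 0.89 ± 0.17 SE, adjusted p = 0.0049 by limma) and passed in every fit that left out a library and under every scaling. *Bag1* was at 9.91 to 17.9 FPKM in Bnc1tr/tr and 11.6 to 15.3 FPKM in WT, and *Bag4* at 10.3 to 12.6 and 8.65 to 14.5 FPKM, both with overlap. *Bag6*, which hands tail-anchored proteins to their insertion factors, was at 1.83, 1.42 and 1.92 FPKM in Bnc1tr/tr and 2.07, 2.21 and 2.42 FPKM in WT. Its groups did not overlap and it did not pass (adjusted p = 0.27 by limma), except as lower under quantile normalization (log2 fold change -0.69, adjusted p = 0.014 by limma). Of the genes named for binding HSP70 or HSP27, *Hspbap1* overlapped at 14.7 to 15.7 and 10.5 to 19.6 FPKM, and *Hspbp1* stayed under 1 FPKM. *Hspb11*, of intraflagellar transport, was at 66.7 to 104.1 and 75.3 to 122 FPKM.

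Levels per length were summed within a library by class and by the compartment assigned to the encoded protein, which does not locate the transcripts. HSP70 members summed to 732, 874 and 908 FPKM in Bnc1tr/tr and 1329, 1328 and 910 FPKM in WT, mostly *Hspa8*, which made up 65.0 to 76.8% of the sum. TRiC summed to 962, 1081 and 998 FPKM in Bnc1tr/tr and 1450, 1348 and 1099 FPKM in WT, and HSP60 with HSP10 to 209, 228 and 261 and to 263, 291 and 294 FPKM. These sums did not overlap, by a narrow gap in each class, to WT replicate 3 for HSP70 and TRiC and to WT replicate 1 for HSP60 with HSP10. HSP90 members summed to 1716 ± 214 FPKM (SD, n = 3) in Bnc1tr/tr and 1587 ± 146 FPKM (SD, n = 3) in WT, DNAJB to 877 ± 27.8 and 846 ± 36.2, and DNAJC to 1628 ± 95.6 and 1563 ± 17.0, all with overlap.

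By compartment, the cytosolic members summed to 5461 ± 125 FPKM (SD, n = 3) in Bnc1tr/tr and 5901 ± 275 FPKM (SD, n = 3) in WT, the ER members to 437 ± 30.3 and 538 ± 78.6, and the mitochondrial members to 802 ± 43.3 and 769 ± 18.4. None of these 3 sums was apart between the groups. Without *Hsp90aa1* the cytosolic sums were 3675, 3997 and 3984 FPKM in Bnc1tr/tr and 4890, 4675 and 4027 FPKM in WT, which did not overlap by a narrow gap to WT replicate 3. Members placed elsewhere (vesicles, other or several sites) summed to 186 ± 25.6 and 149 ± 27.9 FPKM. Of these, 3 of 7 tested were higher, *Dnajc5b*, *Dnajc5g* and *Dnajc16* (24.1% over all genes), which depends on the placement of *Dnajc16*. Median log2 fold changes were -0.05 in the cytosol, -0.24 in the ER, -0.08 in mitochondria and 0.46 elsewhere, beside 0.15 over all genes, and the last of these was 0.28 with median-ratio scaling and 0.08 with quantile normalization. Since FPKM is a share of a library, less of a transcript and more of all others cannot be told apart.

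**Figure D4:**
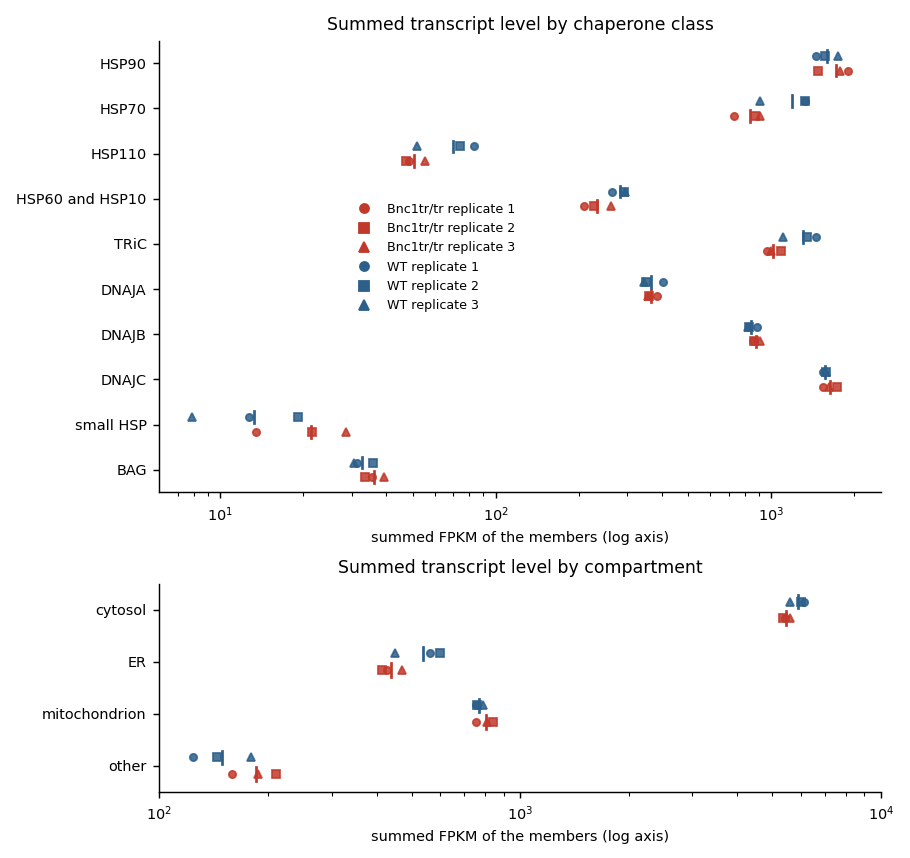
Summed FPKM (log axis) of the chaperone members by class (top) and by compartment (bottom) in each of the 3 Bnc1tr/tr (red) and 3 WT (blue) libraries, with short vertical lines at group means. The HSP70, HSP60 with HSP10, and TRiC sums are lower in every Bnc1tr/tr library, and the cytosolic, ER and mitochondrial sums overlap.

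Partner genes outside the symbol rule were read from lists of co-factors. Of 21 tested co-chaperones of HSP90 and HSP70, 1 was higher (the phosphatase *Ppp5c*, log2 fold change 1.17), 1 was lower (*Pih1d1* of the R2TP complex, -0.61) and 19 did not pass, with a median of -0.14. Of 9 tested prefoldin and phosducin-like genes, which deliver clients to TRiC, *Vbp1* was lower (log2 fold change -0.67) and 8 did not pass. Of 15 tested ER folding genes, 2 were higher and 4 were lower. The higher ones were *Selenos*, a selenoprotein of ER degradation, at 18.8, 18.0 and 8.07 FPKM in Bnc1tr/tr and 2.0, 2.11 and 0 FPKM in WT, and the oxidase *Ero1l*. *Ero1l* was low, at 3.6, 1.34 and 1.55 FPKM in Bnc1tr/tr and 0.71, 0.73 and 0.89 FPKM in WT, and passed narrowly (log2 fold change 0.77, adjusted p = 0.048 by limma). *Canx*, *Pdia3*, *Pdia4* and *Sdf2l1*, which retain, bridge or assist folding glycoproteins and BiP clients, were lower, at log2 fold changes of -0.79, -0.80, -0.58 and -1.41, and *Hyou1*, the ER relative of HSP110, stayed under 1 FPKM. Of 11 tested mitochondrial folding and quality control genes, the protease *Clpp* was higher (0.81) and the protease *Lonp1* and the iron-sulfur J protein *Hscb* were lower (-0.76 and -0.81), while the mitochondrial HSP90 *Trap1* overlapped at 25.7 to 29.5 and 18.7 to 47.2 FPKM. The shares called in these lists stand beside 24.1% higher and 7.68% lower over all genes. Calls of these partner genes, some of them narrow (*Pdia4* and *Vbp1* at adjusted p = 0.043 and 0.04 by limma), were not followed across the alternative fits.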

How the data were processed

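The authors deposited 1 gene table per library in FPKM, rounded to 2 decimals, with the same 17577 genes in each. The submitters' processing notes name HISAT2 2.0.4, Bowtie2 2.2.5, RSEM 1.2.12 and GRCm38.p6 without roles. Amplification without molecular identifiers means that counting limits cover counting error only. Groups (3 Bnc1tr/tr, 3 WT) come from the labels. limma 3.58.1 (R 4.3.3) was run on log2(FPKM + 1) after removal of genes averaging under 1 FPKM. This scale understates changes of low genes. The script was tested on simulated data. Ratios were compared by exact two-sided permutation tests in scipy 1.17.1. Named genes were called members with a mean of at least 10 FPKM, the 2 most abundant members of each class and a fixed set of reference chaperones. Other genes were named after their values were seen. Members, classes, lists and ratios were chosen with earlier results of these data known. Shared 31-base words came from GENCODE M21 transcripts, and promoters and positions from RefSeq (GRCm38.p6). Compartments were assigned from general knowledge. Alternatives were another pseudocount (0.1), other filters and fold-change thresholds, 3 other scalings, the replicate number as a block, trend and robust variances, and leaving out each library.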

Additional observations from a re-analysis of the deposited data

How the results depend on the processing

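Over 37 named genes, 514 alternative values were computed, of which 435 kept direction and side of the threshold, 27 kept direction and lost the threshold, 19 kept direction and reached it, and 33 changed sign, all in genes that did not pass. Upper-quartile scaling gave 21 changed members (3 higher, 18 lower), median-ratio scaling 3 higher and 14 lower, and quantile normalization 4 higher and 13 lower. Over the fits that left out a library, 5 to 22 members were changed, 4 to 9 higher and 0 to 13 lower. At an absolute log2 fold change over 1, 1 member was changed (1 higher, *Dnajb9*) and 0 lower. The other settings gave counts within 1.5 times the main ones.

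The replicate number as a block gave 15 changed members (10 higher, 5 lower), among them all 13 of the fit without it. Deviations of same-numbered libraries correlated at 0.28, -0.03 and 0.12, so the numbers were not taken to pair libraries.

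With upper-quartile and median-ratio scaling the log2 fold change was -0.12 and -0.063 for *Dnaja1*, -0.25 and -0.19 for *Dnajb4*, -0.20 and -0.15 for *Dnajb6*, -0.18 and -0.12 for *Dnajc8*, and -0.075 and -0.02 for *Hsp90aa1*, and with quantile normalization it was -0.098 for *Hsf2*. Over the fits that left out a library it ran from -0.25 to 0.15 for *Bag1*, -0.25 to 0.091 for *Bag4*, -0.087 to 0.03 for *Cct8*, -0.014 to 0.11 for *Dnajb4*, -0.014 to 0.17 for *Dnajb6*, -0.15 to 0.079 for *Dnajc9*, -0.15 to 0.08 for *Hspa2*, -0.03 to 0.93 for *Hspb1*, -0.16 to 0.19 for *Hspb11*, -0.31 to 0.11 for *Hspbap1*, -0.11 to 0.53 for *Hsf1* and -0.49 to 0.16 for *Trap1*.

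Depth limits the members under about 0.2 FPKM, and shared sequence the *Hspa1a* and *Hspa1b* pair.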
